A study of Mus musculus with 6 samples.

Results

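Integrin and laminin chain genes were examined in mouse lung: every row of the count table whose symbol is an integrin alpha chain (Itga with a number or one of the letters d, e, l, m, v or x), an integrin beta chain (Itgb with a number) or a laminin chain (Lama, Lamb or Lamc with a number). The rule found 37 genes among 29753 rows, 26 for integrin chains and 11 for laminin chains. The lungs came from balb/c mice on day 0 (D0, 3 libraries) or day 14 (D14, 3 libraries) after K7M2 cells, a mouse osteosarcoma line that metastasises to the lung, were implanted orthotopically. K7M2 cells are named in the labels of both days, and the labels do not say whether the D0 mice had already received them or how old the mice were. The titles call the libraries of each day biological replicates, but do not say whether 1 library is 1 mouse. A p-value here therefore sets the difference between days against the variation among these libraries, and the unit that this variation covers is not stated. No D14 group without implanted cells was among the samples, so effects of the tumour, the procedure, age and the day of collection cannot be told apart.

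Integrins are cell surface receptors made of 1 alpha and 1 beta chain that tie the cytoskeleton to the matrix or to other cells, and the pair of chains sets which ligand is bound. Laminins are secreted trimers of 1 alpha, 1 beta and 1 gamma chain that polymerise into the sheet on which epithelium, endothelium, muscle and nerve rest, the basement membrane. In the alveolus the basement membranes of epithelium and capillary lie against each other, and integrins on both sides hold the cells to them.

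The upstream sequences of 4 chain genes are shown, 3 whose D14 libraries all lay above the D0 libraries (Lamb1, Itga1 and Itgb1) and 1 with high and low libraries on both days (Itgav). They were taken from RefSeq (GRCm38.p6), are written 5′ to 3′ on the strand of the gene, and end at the last base before the annotated gene (which leaves 191 bases for Lamb1 and 250 for the others), at chr12:31265043-31265233 (plus strand) for Lamb1, chr13:115101965-115102214 (minus) for Itga1, chr8:128685404-128685653 (plus) for Itgb1 and chr2:83724147-83724396 (plus) for Itgav. Capitals mark matches, on either strand, to GGGCGG, the core of a GC box, to CCAAT, or to AGGAAG, a core bound by Ets factors.
Lamb1: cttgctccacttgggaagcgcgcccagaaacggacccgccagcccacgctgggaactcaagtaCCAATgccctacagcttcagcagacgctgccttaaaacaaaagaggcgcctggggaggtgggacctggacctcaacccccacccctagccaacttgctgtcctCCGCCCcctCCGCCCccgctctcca
Itga1: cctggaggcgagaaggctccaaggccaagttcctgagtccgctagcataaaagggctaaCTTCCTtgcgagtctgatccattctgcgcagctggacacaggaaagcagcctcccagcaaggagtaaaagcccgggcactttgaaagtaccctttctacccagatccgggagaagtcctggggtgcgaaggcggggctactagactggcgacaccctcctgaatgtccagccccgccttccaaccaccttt
Itgb1: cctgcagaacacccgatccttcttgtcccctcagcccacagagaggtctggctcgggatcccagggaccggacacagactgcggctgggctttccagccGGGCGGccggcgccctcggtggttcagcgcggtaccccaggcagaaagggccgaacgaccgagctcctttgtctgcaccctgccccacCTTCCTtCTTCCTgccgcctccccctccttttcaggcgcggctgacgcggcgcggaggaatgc
Itgav: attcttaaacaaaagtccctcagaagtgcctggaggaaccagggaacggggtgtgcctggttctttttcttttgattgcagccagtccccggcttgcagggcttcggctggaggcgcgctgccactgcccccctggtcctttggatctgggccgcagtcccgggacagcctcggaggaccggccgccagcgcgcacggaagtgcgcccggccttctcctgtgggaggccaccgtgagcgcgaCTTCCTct

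TATAAA and TGANTCA, the TATA and AP-1 motifs, matched in none of these 4 sequences. Windows of 250 bases before the start were on hand for 26 start sites of 23 of the chain genes. TATAAA was in 0 of these 26 windows, against 12.4% of 32851 such windows over all genes. GGGCGG was in 9 of 26 (32.7% of all windows), CCAAT in 4 (33.8%), AGGAAG in 12 (29.5%) and TGANTCA in 1, that of Itgax (6.7%). Matches were counted per motif, also where 2 motifs shared letters, and a match or its absence describes only these letters. The median GC content was 58.0% in the chain genes' windows and 52.4% in all windows.

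Library totals were 14878101 to 17385006 counts. Lung markers were abundant in every library: the summed level of 6 type 2 alveolar epithelial genes was 20900 to 46810 CPM (counts per 1000000 of the TMM-scaled library total) and that of 10 endothelial genes 2958 to 6125 CPM. Of 4 osteoblast lineage genes in the table, Sp7 and Bglap, the defining ones, had no count in any D0 library and at most 0.128 CPM at D14, while Runx2 (7.09 to 8.57 CPM) and Alpl (18.5 to 34.2 CPM), which other cells also express, were present in every library. On the first principal component D0 replicate 3 lay farthest out (82.85 against −41.48 to 15.71 elsewhere), and it held the most skeletal muscle RNA (760 CPM summed over 4 genes, against 24.1 to 182 elsewhere). Keratin and cornified envelope genes were also far above the other D0 libraries there. The difference in log2 CPM was 3.985 for Krt13, 4.101 for Krt4 and 4.367 for Lor, genes picked after their values were seen. The part of such tissue in the chain values was not tested.

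No integrin or laminin chain gene passed the test between days. At an adjusted p of 0.05 (edgeR quasi-likelihood test, Benjamini-Hochberg over 17686 tested genes) 0 of 37 chain genes were called, against 0.0339% of all tested genes, and 0 were called by DESeq2, against 1.54%. At an unadjusted p under 0.05 stood 4 of them (12.6% of all tested genes): Lamb1, Itga1 and Lama1 with higher values at D14 (5.48% of all genes on that side) and Itgad with lower ones (7.09%). Every D14 library lay above every D0 library in 9 of 37 (10.9% of all tested genes) and below in 1 (10.7%). Lama1 is among these 9 and Itgad is the 1 below, and both are among the 4 at an unadjusted p under 0.05. Each passed the filter on low counts only through the day where it is high, so its place in these counts carries no weight. In bulk lung, fewer cells of a type and less RNA per cell cannot be told apart for any chain gene.

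All 37 passed the filter on low counts. Of these, 35 passed it in all 6 libraries, whereas Lama1 passed it only through its D14 libraries and Itgad only through its D0 libraries, so these 2 had to differ and count for nothing on their own. Chain genes leaned upward: 23 of 37 log2 fold changes were positive, against 46.9% of all tested genes. Lama1, positive, and Itgad, negative, are still part of this count and of the medians that follow. The median was 0.14 for integrin chains and 0.20 for laminin chains, against −0.03 for all tested genes. The lean depended on the library. Without D0 replicate 3 the laminin median was −0.003 and the integrin median 0.10. Without D0 replicate 1, 15 chain genes had an unadjusted p under 0.05, against 18.7% of all genes in that fit.

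D0 libraries were more spread than D14 libraries. The median coefficient of variation over the chain genes was 24.2% at D0 and 11.1% at D14 (21.4% and 14.2% over the other tested genes). D0 replicate 3 was the lowest of the 6 libraries in 18 of 37 chain genes, against 29.8% of all tested genes. This went with transcript length. Over the 37 genes, the Spearman correlation of the longest annotated transcript with the difference between D0 replicate 3 and the other D0 libraries (log2 CPM) was −0.513, and it was −0.462 over 17310 other genes, which share these 3 libraries. It was −0.827 over the 11 laminin chains (median difference −0.63) and −0.286 over the 26 integrin chains (median difference −0.049). Laminin chain transcripts have a median length of 6046 bases, integrin chain transcripts of 4833.5 and other tested genes of 3035. Among other genes of 8000 bases or more, the median deviation of D0 replicate 3 from the mean of the 6 libraries was −0.526 on the log2 scale, and for the 7 chain genes of that length it was −1.122. When the trend with length in each library was taken into the fit as an offset, an alternative chosen after seeing the data, the medians were −0.016 for integrin chains and −0.043 for laminin chains.

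**Figure D1:**
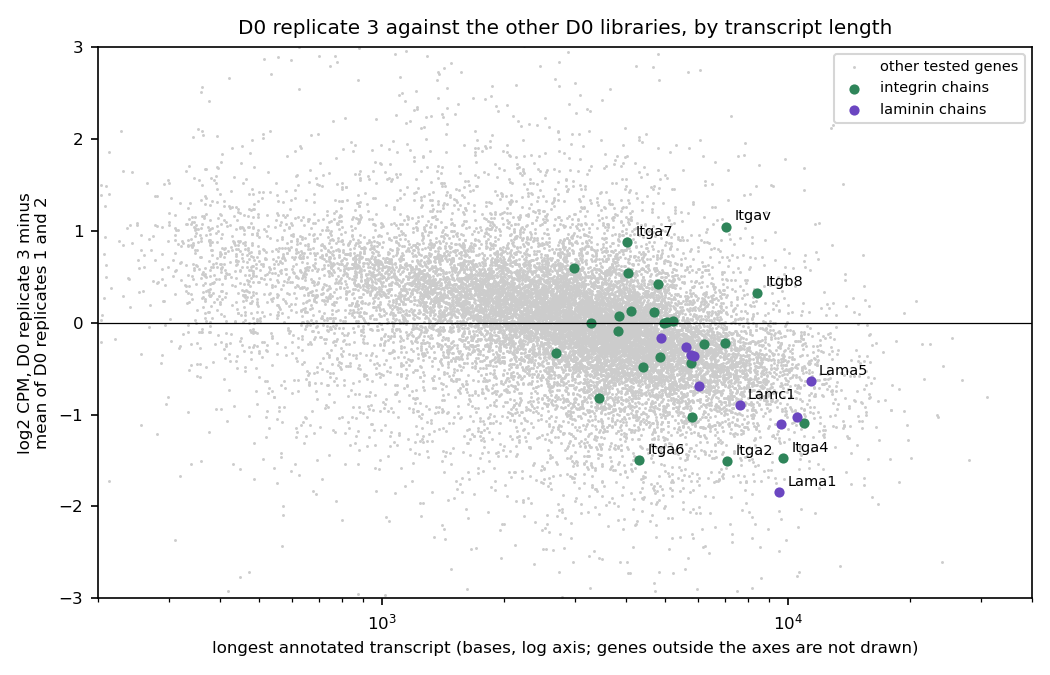
Difference in log2 CPM between D0 replicate 3 and the mean of the other D0 libraries (vertical) against the longest annotated transcript in bases (horizontal, log axis), 1 point per gene. Laminin chains (purple) and integrin chains (green) lie on the falling cloud of other genes (grey), with Itga2, Itga4, Itga6 and Lama1 near its lower edge and Itgav and Itga7 above it.

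Among laminin chains, the beta1 and gamma1 chains and the alpha2 chain were higher in all D14 libraries. Lamb1 encodes beta1, which with gamma1 forms the core of most laminins of vessels and mesenchyme, and lies on chromosome 12 from 31265234 to 31329644 (GRCm38, protein coding). Its level was 126, 93.6 and 85.2 CPM on D0 against 139.8, 164 and 172 CPM on D14. The ranges did not overlap, and the log2 fold change was 0.64 (SE 0.19; unadjusted p = 0.00994, adjusted p = 0.354, edgeR). It was 0.53 without D0 replicate 3 and 0.49 with the length offset, and DESeq2 gave the smallest adjusted p of any setting, 0.0847.

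Lamc1 encodes gamma1, the gamma chain of most laminins (chromosome 1, 153218922 to 153332786). Its values were 271, 225 and 132 CPM on D0 against 297, 329.9 and 321 CPM on D14, with D0 replicate 3 at 0.535 of the mean of the other D0 libraries. The ranges did not overlap (log2 fold change 0.59, SE 0.26; adjusted p = 0.398, edgeR). Lama2 encodes alpha2, the chain of muscle and nerve laminin that is also made by mesenchymal cells. It had 51.3, 39.5 and 20.9 CPM on D0 against 54.3, 60.3 and 65.5 CPM on D14, without overlap (0.69 on the log2 scale, SE 0.30; adjusted p = 0.405, edgeR). D0 replicate 1 lay just below the lowest D14 library, and without D0 replicate 3 the log2 fold changes of Lamc1 and Lama2 were 0.35 and 0.40.

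The chains typical of epithelial basement membrane did not share this pattern. Lama5 encodes alpha5, the main alpha chain of mature epithelium and endothelium, and had 269.7, 302 and 184 CPM on D0 against 223, 224 and 221 CPM on D14. The D14 libraries lay between the D0 libraries (log2 fold change −0.18, SE 0.20; adjusted p = 0.699, edgeR). Lama3 and Lamb3 encode chains of epithelial laminins that anchor hemidesmosomes. Lama3 had 272, 287 and 137 CPM on D0 against 276, 262 and 263 CPM on D14, so that only D0 replicate 3 stood off. Lamb3 stood at −0.26 (SE 0.19) and shares its locus with Hsd11b1 on the other strand, which had 1721 to 2169 counts, so without known strand handling its level is uncertain.

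Lamb2, the beta2 chain of mature vessel and synaptic laminins, had 266, 292 and 232 CPM on D0 against 248, 264 and 230.2 CPM on D14, with no separation of the days (log2 fold change −0.09, SE 0.15). Lama4, the alpha4 chain of vessel walls, had 98.4, 72.8 and 52.6 CPM on D0 against 85.6, 109 and 115 CPM on D14, overlapping through D0 replicate 1 (0.46, SE 0.24; adjusted p = 0.447, edgeR). Without D0 replicate 3 it stood at 0.27, and without D0 replicate 1 at 0.72. Lamc3, a gamma chain of low level, stood at 0.11 (SE 0.27). Lama1, the alpha chain of early embryonic and some epithelial basement membranes, had only 7, 4 and 0 counts on D0 against 11, 14 and 13 on D14; in the library without a count, 3 counts would be 0.211 CPM, a limit for counting error only. On the log2 scale it stood at 1.75 (SE 0.74; adjusted p = 0.394, edgeR).

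Since a trimer takes 1 chain of each class, the share of each chain within its class was computed per transcript length, a quantity that the scaling of a library does not move. The beta1 share was higher and the beta2 share lower in every D14 library. The beta class includes Lamb3, whose level is uncertain as given above, and the shares of all beta chains rest on it. Lamb1 made up 23.2%, 16.4% and 18.3% of beta chain transcripts at D0 and 25.9%, 28.5% and 33.9% at D14. Lamb2 made up 51.4% ± 0.957 at D0 and 46.9% ± 0.398 at D14 (SD, n = 3 each). Among alpha chains the share of Lama5 was lower, at 33.3%, 38.0% and 40.4% against 29.8%, 28.6% and 27.6%, and that of Lama2 higher, 6.27% ± 1.09 against 9.14% ± 0.552 (SD, n = 3 each). These 4 were the chains, among 9 tested, whose D0 and D14 shares did not overlap, and each reached an exact permutation p of 0.1 (two-sided), the smallest that 3 against 3 libraries allow, or 0.225 after adjustment over the 9. The shares of a class are tied, since a higher share of 1 chain lowers those of the others, so the 4 are not independent results. In CPM, Lamb2 and Lama5 overlapped between days (log2 fold changes −0.09 and −0.18).

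The other alpha and beta chain shares tested overlapped between days. Lama3, the most abundant alpha chain per length at D14, had 35.9% ± 3.24 and 37.2% ± 2.40, Lama4 20.6% ± 2.99 and 24.9% ± 2.91, and Lamb3 29.3% ± 2.70 and 23.7% ± 3.66 (SD, n = 3 each). Leaving out each library in turn kept the sign of the differences for all of the 9 chains but Lama3, and the difference of Lama5 ran from −10.49 to −6.94 percentage points. The shares of long and short chains can still be moved by the trend with length described above, and that was not tested for the shares.

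**Figure D2:**
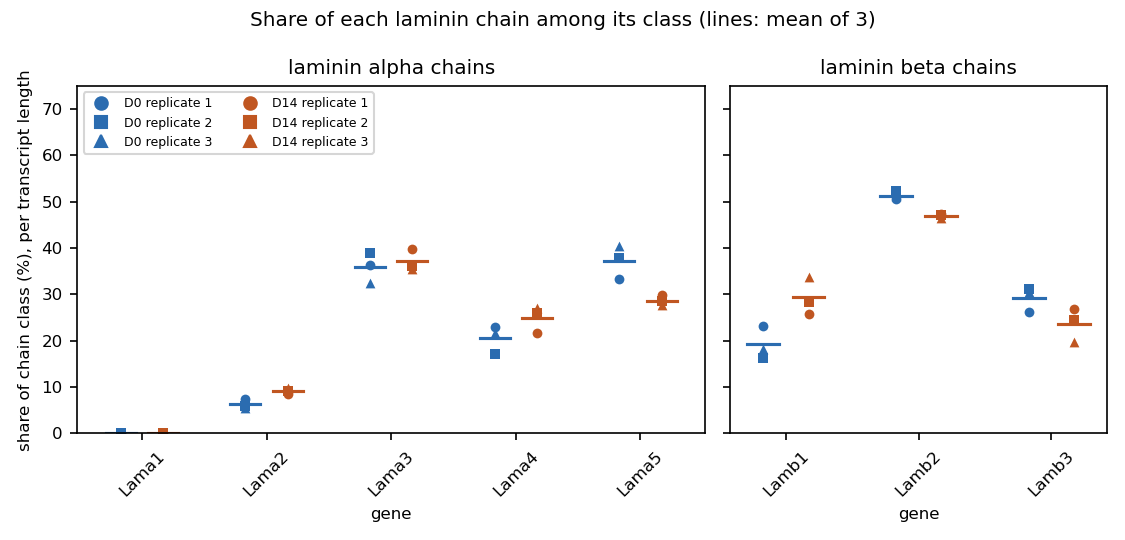
Share of each laminin chain among the alpha or beta chains of a library, in percent of CPM per kilobase of transcript, with D0 in blue, D14 in orange, 1 symbol per replicate number and a line at the mean of 3. The D14 symbols of Lamb1 and Lama2 lie above, and those of Lamb2 and Lama5 below, all D0 symbols.

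Of the integrin chains, Itgb1 had the highest level per length, 181 ± 34.5 CPM per kilobase at D0 and 242 ± 2.26 at D14 (SD, n = 3 each), and took 56.0% to 69.6% of beta chain transcripts. Itgb1 encodes beta1, the partner of the collagen- and laminin-binding alpha chains and of many others (chromosome 8, 128685654 to 128733200). In CPM it had 838, 582 and 656 at D0 and 924, 931 and 914 at D14. The D14 libraries had a coefficient of variation of 0.935% and all lay above D0 (log2 fold change 0.42, SE 0.18; adjusted p = 0.406, edgeR). Itga3, the laminin-binding alpha3 of epithelium, followed per length with 68.7 CPM per kilobase over all libraries. Itga8 (44.0), which was higher in all D14 libraries, and Itgb5 (43.0), which overlapped between days, came next among integrins.

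Collagen-binding chains pair with beta1. Itga1, alpha1, binds the network-forming type IV collagen and lies on chromosome 13 from 114953096 to 115101964. It had 336, 211 and 124 CPM on D0 against 376, 375 and 433 CPM on D14. The D0 libraries differed among themselves more than D0 replicate 1 differed from D14. The log2 fold change was 0.82 (SE 0.33; unadjusted p = 0.0403, adjusted p = 0.385, edgeR), 1.24 without D0 replicate 1, 0.53 without D0 replicate 3 and 0.58 with the length offset. Pelo lies inside Itga1 on the same strand, with 258 to 403 counts against 1773 to 6751 for Itga1, so the split of reads between them is uncertain. Itga2, alpha2, had 39.0, 23.6 and 10.6 CPM on D0 against 38.5, 42.0 and 43.8 CPM on D14 and overlapped through D0 replicate 1 (0.76, SE 0.40; adjusted p = 0.452, edgeR). Without D0 replicate 3 it stood at 0.41, and without D0 replicate 1 at 1.28. Itga10 and Itga11, collagen receptors of cartilage and of fibroblasts, stayed between 0.829 and 3.14 CPM in all libraries.

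The laminin-binding chains showed no common direction. Itga6, alpha6, the receptor of epithelial and endothelial basement membrane, had 78.5, 51.6 and 22.5 CPM on D0 against 95.1, 74.0 and 94.0 CPM on D14 (log2 fold change 0.79, SE 0.40; adjusted p = 0.436, edgeR). Its D0 replicate 3 lay at 0.346 of the mean of the other D0 libraries, and the log2 fold change of Itga6 was 0.43 without that library and 1.25 without D0 replicate 1. Itga3 had 354, 344 and 269 CPM on D0 against 348, 383 and 306 CPM on D14, a log2 fold change of 0.10 (SE 0.17). Itgb4, beta4, which pairs with alpha6 in hemidesmosomes, had 14.9 to 18 CPM at D0 and 17.9 to 20.0 at D14 (0.18, SE 0.16). Itga7, alpha7, the laminin receptor of muscle, leaned the other way (24.1, 15.5 and 35.7 CPM against 19.8, 15.1 and 17.2 CPM; −0.53, SE 0.30; adjusted p = 0.465, edgeR). It was highest in D0 replicate 3, the library with the most skeletal muscle RNA. Without that library the log2 fold change of Itga7 was −0.19, and the part of muscle RNA in its value was not tested.

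RGD-binding chains recognise the Arg-Gly-Asp motif of fibronectin, vitronectin, nephronectin and latent TGF-beta. Itga8, alpha8, a receptor of nephronectin on mesenchymal cells, had 283, 211 and 120.0 CPM on D0 against 306, 309.7 and 306 CPM on D14. D14 varied by 0.719% around its mean and D0 by 39.9%, and the ranges did not overlap (log2 fold change 0.59, SE 0.29; adjusted p = 0.429, edgeR). Leaving out D0 replicate 3 gave 0.32, and leaving out D0 replicate 1 gave 0.90. Itgb3, beta3, of platelets and activated endothelium, had 43.3, 37.0 and 29.4 CPM on D0 against 44.2, 50.9 and 47.3 CPM on D14 (0.38, SE 0.17; adjusted p = 0.417, edgeR; 0.24 without D0 replicate 3). Its platelet partner Itga2b overlapped between days (7.58 to 20.3 against 14.7 to 17.5 CPM), and the summed level of 7 platelet genes was 33.9 to 51.0 CPM at D0 and 38.5 to 54.5 CPM at D14. Itga5, alpha5, the fibronectin receptor, stood at 0.54 (SE 0.25; adjusted p = 0.418, edgeR), with 47.8 to 85.7 and 76.4 to 107 CPM.

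Of the beta chains that pair with alpha-v, beta1 and beta3 are described above, and Itgb5, Itgb6 and Itgb8 showed no separation of the days. Itgb5 had 142, 144 and 143 CPM on D0 against 143, 136 and 139 CPM on D14, the steadiest chain gene over all 6 libraries (log2 fold change −0.04, SE 0.13). Itgb6, beta6, an epithelial activator of latent TGF-beta, had 65.1 to 92.3 CPM at D0 and 51.3 to 68.3 at D14 (−0.31, SE 0.19; adjusted p = 0.486, edgeR). Itgb8 had 2.55 to 3.52 CPM in all libraries. Itgav, alpha-v itself, had 1 low library on each day. Its level was 21.2, 98.7 and 94.6 CPM on D0 against 105, 111 and 33.7 CPM on D14, lowest in D0 replicate 1 and D14 replicate 3 (log2 fold change 0.22, SE 0.62). Itgav was singled out after its values were seen. The genes annotated inside Itgav (chromosome 2, 83724397 to 83806916), both on the other strand, had at most 6 counts in a library.

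Chains of the immunoglobulin-superfamily ligands and of leukocytes came next. Itga4, alpha4, a lymphocyte receptor of VCAM-1 and fibronectin, had 60.2, 45.5 and 18.8 CPM on D0 against 45.6, 58.9 and 60.2 CPM on D14, with only D0 replicate 3 apart (0.40, SE 0.38). Itga9, alpha9, a receptor of tenascin-C and VCAM-1, overlapped between days, with 86.2, 81.0 and 71.5 CPM on D0 against 91.4, 82.7 and 83.7 CPM on D14 (0.11, SE 0.14). On the other strand of its locus Gm10157 had 428 to 778 counts and Gm2415 138 to 269, against 1018 to 1578 for Itga9. Without known strand handling the level of Itga9 is uncertain. Of 7 leukocyte chains, 6 had a negative log2 fold change, against 9400 of 17686 tested genes. The 6 include Itgad, which passed the filter on low counts only through D0, so its sign carries no weight. Itgal, Itgam, Itgax and Itgb7, also among the 6, changed sign in some fits with 1 library left out. Itgb2, beta2, shared by the leukocyte chains alpha-L, alpha-M, alpha-X and alpha-D, had 88.9, 118 and 155 CPM on D0 against 101, 107 and 87.7 CPM on D14 (−0.29, SE 0.22; adjusted p = 0.555, edgeR). Summed macrophage and monocyte markers ran the same way in D0, at 371, 516 and 930.2 CPM, and were 422 to 494 CPM at D14. Single genes of that list differed: Chil3 had this order at D0 (58.4, 115 and 427 CPM), while Csf1r did not (144, 155 and 148 CPM). Of the 8 macrophage and monocyte genes, 4 had a positive log2 fold change. Of 7 neutrophil genes, 6 had a positive one, with summed levels of 119 to 208 CPM at D0 and 103 to 254 CPM at D14. Summed B cell markers were lower in all D14 libraries, at 186, 117 and 206 CPM against 71.9, 89.0 and 97.2 CPM. Of these, 4 of 4 stood at an unadjusted p under 0.05 with lower values (7.09% of all tested genes) and 0 passed the adjusted threshold. Of 7 T and NK cell genes, 6 had a negative log2 fold change (9400 of 17686 tested genes), with summed levels of 80.1 to 139.9 CPM and 81.0 to 87.4 CPM. The part of these cells in the values of the leukocyte chains was not tested.

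Itgax, alpha-X of alveolar macrophages and dendritic cells, was also highest in D0 replicate 3 (40.5, 55.7 and 69.0 CPM, against 61.3, 53.1 and 40.5 CPM at D14; −0.09, SE 0.24). Itgal, alpha-L of lymphocytes, and Itgb7 stood at −0.02 (SE 0.15) and −0.18 (SE 0.21). Itgam, alpha-M of neutrophils and monocytes, stood at −0.12 (SE 0.35), but Gm49368 overlaps it on the same strand with 3 to 223 counts. Itgae, alpha-E, the receptor of epithelial E-cadherin on intraepithelial T cells and some dendritic cells, was the leukocyte chain that was higher in all D14 libraries: 6.22, 6.58 and 6.74 CPM against 8.75, 8.04 and 9.55 CPM (0.43, SE 0.19; adjusted p = 0.398, edgeR). The log2 fold change of Itgae was 0.36 to 0.49 over all settings tried. Haspin, which lies within Itgae on the other strand, had 31 to 54 counts. Itgad, alpha-D, had only 11, 19 and 14 counts on D0 against 2, 4 and 2 on D14 (−2.46, SE 0.53; adjusted p = 0.32, edgeR), beside 201 to 523 counts of Cox6a2 on the other strand of its locus.

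**Figure D3:**
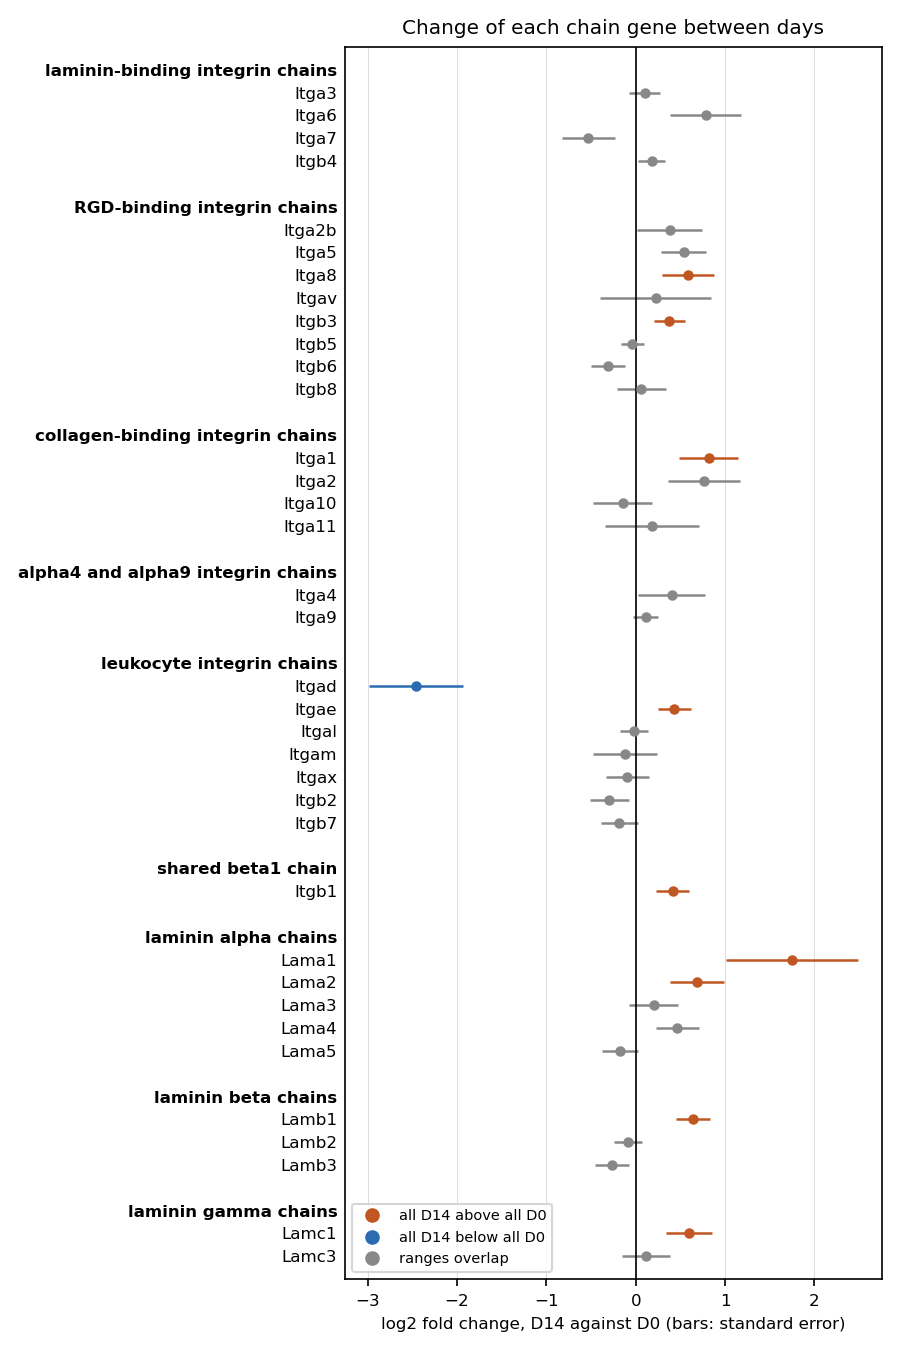
Log2 fold change of D14 against D0 for 36 chain genes with its standard error, from the edgeR fit, grouped by role. Orange points (9 genes) have all D14 libraries above all D0 libraries, the blue point (Itgad) all below, and grey points overlap. Lama1 (orange) and Itgad passed the filter on low counts only through the day where they are high. None passed an adjusted p of 0.05.

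Endothelial markers in sum were likewise highest in the D14 libraries, but not each of them. Egfl7 had 504, 428 and 410 CPM on D0 against 465, 367.5 and 311 CPM on D14 (log2 fold change −0.23). Tie1 was highest in D0 replicate 1 (431 CPM, against 350 to 370 CPM at D14), and Cdh5 and Eng overlapped between days. The summed level of 10 endothelial genes was 5491, 3820 and 2958 CPM on D0 against 6032, 6106 and 6125 CPM on D14, and 9 of the 10 had a positive log2 fold change, with 5 at an unadjusted p under 0.05, all higher, and 0 past the adjusted threshold (46.9% of all tested genes were positive and 5.48% stood at that p with higher values). By this sum the D0 libraries, with replicate 1 above 2 above 3, were ordered as for Itga1, Itga2, Itga6, Itga8, Lama2, Lama4, Lamb1 and Lamc1. Further chain genes had this order too, among them Itgb7, Itga2b, Itga4, Itga3 and Itgb4. Within the endothelial list Cldn5 (712.5, 592 and 692 CPM at D0) and Emcn (56.6, 47.3 and 49.7 CPM) did not have it. Itgb1 (837.9, 582.5 and 655.7 CPM at D0) and Itgae (6.22, 6.58 and 6.74 CPM), both higher in all D14 libraries, did not have it either. How common the order is over all tested genes was not counted. Other genes of 8000 bases or more had it in their medians, with log2 deviations of 0.083, 0.02 and −0.526 for D0 replicates 1, 2 and 3. The shortest group of other genes had the reverse order, at −0.045, 0.033 and 0.34. Smooth muscle and pericyte genes had 476 to 535 CPM at D0 and 599 to 646 CPM at D14, and fibroblast genes 682 to 997 and 704 to 1048 CPM. Cardiac muscle genes were higher in all D14 libraries, with 92.8 to 148 CPM at D0 and 199 to 431 CPM at D14. Of these, 3 of 4 stood at an unadjusted p under 0.05, all higher (5.48% of all tested genes), and 0 passed the adjusted threshold. The part of these cell types in the chain values was not tested.

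The partners of these chains gave 0 calls as well. Of 22 tested basement membrane partners and other laminin receptors, 14 had a positive log2 fold change, 1 stood at an unadjusted p under 0.05 with higher values, a share near the 5.48% of all tested genes, and the median was 0.19. Nid1, nidogen-1, which links laminin to type IV collagen, was the 1 gene of these 22 without overlap, higher at D14 (10.9% of all tested genes). It had 209.5, 142 and 73.3 CPM on D0 against 213, 230.4 and 278 CPM on D14 (0.76, SE 0.35; adjusted p = 0.413, edgeR). Col15a1, a collagen of vessel basement membrane, stood at 0.85 (SE 0.32; adjusted p = 0.373, edgeR) with 11 to 14.2 and 13.4 to 32.9 CPM. The most abundant by CPM were Sparc, at −0.02 (SE 0.16), and Col4a1, a chain of type IV collagen, at 0.51 (SE 0.25).

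Of 17 tested ligands of integrins other than laminins, 14 were positive (46.9% of all tested genes), with a median of 0.29, and 5 stood at an unadjusted p under 0.05, all higher (5.48% of all tested genes). Thbs1, thrombospondin-1, a matricellular ligand of several integrins, differed most: 77.6, 139 and 136 CPM on D0 against 484, 888 and 356 CPM on D14. Its ranges lay far apart, yet it did not pass (2.29, SE 0.39; adjusted p = 0.189, edgeR). Vtn, vitronectin, a ligand of alpha-v integrins, had 15.3, 15.1 and 7.16 CPM against 22.3, 24.3 and 22.5 CPM (0.88, SE 0.29; adjusted p = 0.364, edgeR). Fn1, fibronectin, the ligand of alpha5 beta1, stood at 0.70 (SE 0.25). Of the 17 ligands, 6 were higher in all D14 libraries (10.9% of all tested genes) and 1 was lower (10.7%). The lower one was Icam1, the endothelial and epithelial ligand of beta2 integrins, with 563 to 673 CPM at D0 and 419 to 558 CPM at D14 (−0.31, SE 0.17; adjusted p = 0.463, edgeR).

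Of 30 cytoplasmic partners, 23 were positive, with a median of 0.17, and 5 stood at an unadjusted p under 0.05, all higher (46.9% and 5.48% of all tested genes). Fermt2, kindlin-2, an activator that binds beta chain tails, had 341, 313 and 245 CPM on D0 against 388, 469.7 and 472 CPM on D14 (0.56, SE 0.18; adjusted p = 0.364, edgeR). Actn4, an actin crosslinker of adhesions, had 301, 304 and 255 CPM against 361, 479 and 379.6 CPM (0.50, SE 0.17; adjusted p = 0.364, edgeR). Of the 30 partners, 6 were higher in all D14 libraries (10.9% of all tested genes) and 1 was lower (10.7%). The lower one was Fermt3, kindlin-3, the kindlin of blood cells (36.6 to 38.6 CPM against 27.0 to 34.4; −0.27, SE 0.15). The most abundant by CPM, Tns1 and Tln1, stood at 0.30 (SE 0.21) and 0.25 (SE 0.18), and Ilk, the kinase-like scaffold of beta1 tails, at 0.0027 (SE 0.13).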

How the data were processed

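Total RNA of lungs was sequenced in 6 libraries, per the labels' protocols with TRIzol extraction and an NEB library kit; that text speaks of BMDMs (a usual short form for bone marrow-derived macrophages), but tissue and title say lungs. The submitters' processing notes name edgeR, StringTie 1.3.4b, HISAT2 2.1.0 and CASAVA 1.8 with the build GRCm38; the annotation release and how strand was handled are not stated in what was used here. The authors deposited estimated counts by gene symbol without any scaling; those used were already whole, so rounding moved none. Of 29757 lines, 4 with empty or displaced values were left out (Tnf and Tgfb1, each with the line after it), and 50 that repeated a symbol were kept apart. There were 0 columns beyond the samples.

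The whole table was fitted with edgeR 4.0.16 (R 4.3.3; TMM, default low count filter, robust quasi-likelihood F test, two-sided), with Benjamini-Hochberg adjustment over every gene tested and a threshold of 0.05. Standard errors are the size of the log2 fold change over the root of F. For log2 CPM a prior count of 2 was used. Lengths, positions and overlaps came from GENCODE for GRCm38, which held 98.1% of the tested symbols; CPM per kilobase used the longest transcript. Alternatives were DESeq2 1.42.0, limma-voom (limma 3.58.1), RLE or no factors, no filter or 1 CPM in 3 libraries, no robust estimation, the replicate block, each library left out, for the shares the mean transcript length or no length correction, and, added later, a length offset (lowess span 0.3). The test was tested on 3 simulations of D14 against D0 with 200 changed genes among 17398 and found 18.1% of the genes given a log2 change of 1 and 74.8% of the genes given 2, and 33 of its 302 calls were false.

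The chain genes and lists were chosen with earlier results of these data known. The genes given in full were those with an unadjusted p under 0.05 or ranges that do not overlap and the 2 most abundant of each class; of the partner lists, the 2 with the smallest p and the 2 most abundant. Some genes outside this rule, among them Itgav, Fermt3 and Ilk, were named after their values were seen. The counts and medians cover all 37 chain genes, but the values of 1 of them, and shares that rest on it, are not reported here.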

Additional observations from a re-analysis of the deposited data

How the results depend on the processing

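The count of chain genes past the adjusted threshold was 0 under each of the 15 alternatives. The count of all genes past it was 6, and 272 with DESeq2, 26 with no low count filter, 13 with the length offset, which was chosen after seeing the data, and 0 to 22 with 1 library left out (22 when D0 replicate 3 was the one left out, 3 for D0 replicate 1, 1 for D0 replicate 2 and 0 for each D14 library). Replicate numbers are shared by the days, and the labels do not say that a number pairs libraries. Correlations of deviations were 0.119, −0.055 and −0.097 for the same number and −0.168 to 0.183 for unlike numbers. With 3 libraries a day these values cannot show whether libraries are paired. With the replicate block 0 genes passed. The count of chain genes at an unadjusted p under 0.05 was 4, and 10 with DESeq2, 8 with RLE factors or with no filter, 7 with limma-voom or the length offset, 2 with no scaling factors or the 1 CPM filter, and 2 to 15 with 1 library left out (15 without D0 replicate 1, 2 without any 1 D14 library). The integrin median was −0.016 with the length offset and 0.10 to 0.18 with 1 library left out; the laminin median was −0.003 to 0.39.

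Of 37 chain genes, 23 kept the sign of their log2 fold change under every alternative that tested them and 14 did not. With 1 library left out, Itga10 ran from −0.29 to 0.082, Itga11 from −0.58 to 0.52, Itga3 from −0.011 to 0.18, Itgal from −0.11 to 0.081, Itgam from −0.35 to 0.17, Itgav from −0.20 to 0.60, Itgax from −0.26 to 0.10, Itgb7 from −0.36 to 0.0008, Itgb8 from −0.029 to 0.19, Lama3 from −0.066 to 0.39 and Lamc3 from −0.063 to 0.32. The share difference of Lama3 ran from −0.438 to 2.79 percentage points; with the mean transcript length or no length correction, the share differences of all 9 chains kept their sign. With the length offset Itga9 stood at −0.11, Itgav at −0.062, Itgb4 at −0.0094, Itgb8 at −0.25, Lama3 at −0.043 and Lamc3 at −0.047. Itga11 stood at −0.042 with limma-voom and −0.0038 with the replicate block, and Itgb8 at −0.0015 with no scaling factors. The cause of these changes was not tested. The simulations recovered 18.1% of genes given a log2 change of 1, and all chain genes but Lama1 and Itgad had smaller ones.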
